A study of Mus musculus with 6 samples.

Results

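The 58 genes described here are a list of cell cycle and proliferation genes, picked by symbol with S phase and mitosis roles in view, from the 55291 genes of a count table on bone marrow-derived macrophages (BMDMs). All 58 were in the table and all 58 were among the 9815 genes with enough counts to test. By role the list held 16 S phase genes, 25 mitosis genes and 17 genes of cyclins, cyclin-dependent kinases (CDKs), CDK inhibitors and transcription factors. The proliferation markers Mki67 and Top2a were counted among the 25 mitosis genes. BMDMs are primary macrophages grown from marrow, and here they came from 3 WT mice and 3 PYK2 KO mice, all C57BL/6, with 1 library per mouse. PYK2 is a tyrosine kinase encoded by Ptk2b, and the KO animals lacked it in every tissue, so the marrow from which these cells grew had also developed without it. Cells of both genotypes spent 7 days in medium holding L929-conditioned medium, a fibroblast supernatant that supplies M-CSF, and received no IL-4 or IL-13. The ages of the mice were not given in the sources used here. The libraries were made by a bulk form of MARS-seq, which reads the 3′ ends of polyadenylated RNA. The comparison of the 2 genotypes asked whether transcripts of the dividing cell differed between macrophages with and without PYK2.

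Macrophages growing in M-CSF keep dividing, and each division runs through a fixed series of transcript waves. D-type cyclins with CDK4 and CDK6 respond to growth factor, cyclin E with CDK2 starts S phase, and the E2F factors switch on the genes for DNA replication. Later a complex built on MuvB, with B-MYB and FOXM1, binds the cell cycle homology region (CHR) of mitotic genes and raises cyclin B, CDK1 and the spindle proteins. CDK inhibitors of the CIP/KIP family (p21, p27 and p57) and the INK4 family brake the kinases at the start of this series.

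The library totals ran from 2857097 to 3917207 counts. Libraries of the same genotype differed by more than sampling noise, with a chi-square statistic per degree of freedom from 2.15 to 4.79 over genes, so that no library was a duplicate. Ptk2b held 737, 701 and 568 counts in WT libraries 1, 5 and 6, and 71, 64 and 69 counts in PYK2 KO libraries 2, 3 and 4. The targeted gene was thus low in every library labelled KO, with a log2 fold change of -3.15 (95% interval -3.36 to -2.94, edgeR quasi-likelihood test). All 14 macrophage markers passed the filter, and their summed level, in counts scaled to a common library size (CPM), was 33428 to 34940 in WT and 34442 to 36017 in PYK2 KO libraries. None of the 9 erythroid, 9 T and NK cell, 7 mast cell and basophil or 9 stromal markers had enough counts to test.

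Short motifs known from cell cycle promoters were searched for in these genes, and the windows of 4 genes that come up repeatedly in the results are shown, 3 with matches and 1 without. They are given 5′ to 3′ on the gene's own strand, 250 bases before to 50 bases after the transcript start, from RefSeq on build GRCm38.p6. Capitals mark the CHR (TTTGAA or TTCGAA), the NF-Y box (CCAAT) and a strict E2F site (TTCGCGC or TTGGCGC), each searched on both strands, so that TTCAAA and ATTGG are matches on the opposite strand. TTCGAA reads the same on both strands, and an ATTGG that runs on into CGC is also an E2F site. The proliferation markers Mki67 (chr7:135716330-135716629, minus strand) and Top2a (chr11:99024140-99024439, minus strand) held CHR and NF-Y letters, and Mki67 an E2F site as well. Cdc45 (chr16:18811923-18812222, minus strand), a replication gene, held CHR and NF-Y letters. Birc5 (chr11:117848987-117849286, plus strand), a mitotic gene, held none of these letters in its window.
Mki67: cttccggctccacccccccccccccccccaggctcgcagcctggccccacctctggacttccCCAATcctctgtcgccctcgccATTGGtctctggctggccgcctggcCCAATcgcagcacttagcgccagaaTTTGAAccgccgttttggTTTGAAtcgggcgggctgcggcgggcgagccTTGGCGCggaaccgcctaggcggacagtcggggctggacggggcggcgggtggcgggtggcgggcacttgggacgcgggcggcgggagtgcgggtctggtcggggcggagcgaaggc
Top2a: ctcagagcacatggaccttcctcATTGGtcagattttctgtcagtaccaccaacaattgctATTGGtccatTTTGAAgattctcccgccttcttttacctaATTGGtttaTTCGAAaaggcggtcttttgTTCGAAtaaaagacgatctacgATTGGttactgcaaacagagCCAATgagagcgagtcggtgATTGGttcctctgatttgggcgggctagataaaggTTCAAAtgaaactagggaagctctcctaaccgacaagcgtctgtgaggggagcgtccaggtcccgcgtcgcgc
Cdc45: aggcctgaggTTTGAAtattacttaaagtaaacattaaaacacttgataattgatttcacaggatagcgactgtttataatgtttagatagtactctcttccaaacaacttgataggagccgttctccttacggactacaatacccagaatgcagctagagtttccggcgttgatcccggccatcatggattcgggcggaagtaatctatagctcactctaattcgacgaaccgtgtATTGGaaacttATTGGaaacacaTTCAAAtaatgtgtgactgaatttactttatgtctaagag
Birc5: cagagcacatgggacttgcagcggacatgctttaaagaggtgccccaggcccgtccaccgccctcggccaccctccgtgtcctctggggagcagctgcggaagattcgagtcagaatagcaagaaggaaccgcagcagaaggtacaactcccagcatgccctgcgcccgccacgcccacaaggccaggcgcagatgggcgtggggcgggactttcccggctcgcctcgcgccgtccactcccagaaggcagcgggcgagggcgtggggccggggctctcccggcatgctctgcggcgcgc
A window was listed for 47 of the 58 genes and for 27025 genes in all, and of several windows for a gene the first listed was used. The 11 genes without a window could not be searched. They were Cdkn1c, Aurkb, Ccna2, Ccnd1, Ccnd2, Ccne2, Foxm1, Mcm4, Smc4, Stmn1 and Tpx2. CHR letters were in 44.7% of the 47 windows (21 genes) and in 19.4% of all promoters. NF-Y letters were in 68.1% (32 genes) against 37.9% of all promoters, and E2F letters in 17.0% (8 genes) against 4.0%. The CHR divided the list by phase. It was present in 17 of 21 mitosis windows (81.0%) and in 3 of 15 S phase windows (20.0%), close to the share in all promoters. E2F letters were in 5 of 15 S phase windows (33.3%) and 3 of 21 mitosis windows (14.3%), few windows but both above the share in all promoters. NF-Y letters were in 10 of 15 S phase windows (66.7%) and 19 of 21 mitosis windows (90.5%). These shares describe short letter matches and are no record of binding in these cells. None of the 3 motifs was found in 14 of the 47 windows, those of Birc5, Ccnd3, Ccne1, Cdc6, Cdk4, Cdk6, Cdkn1a, Cdkn2c, Dut, E2f1, Mybl2, Nusap1, Tk1 and Tyms.

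**Figure D1:**
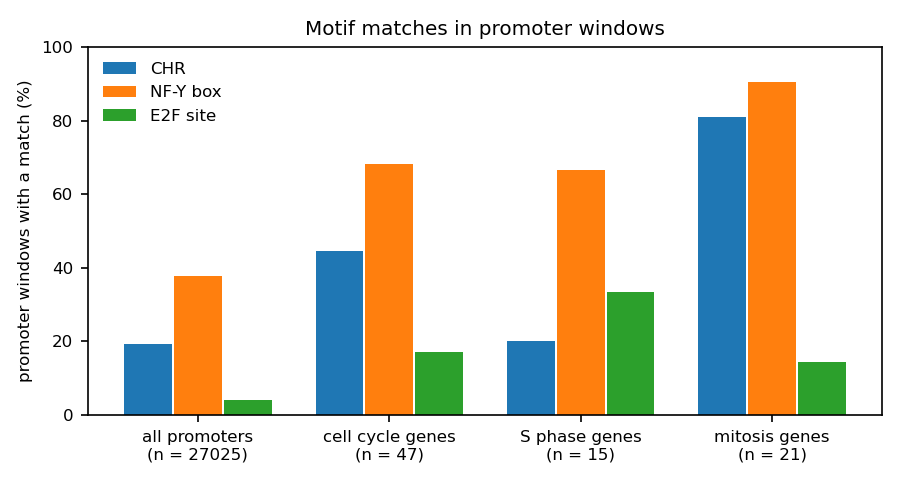
Percent of promoter windows (y axis) that held the CHR, the NF-Y box or the E2F site, for all promoters, for the 47 cell cycle genes with a window and for the S phase and mitosis genes among them. The CHR bar stands at 81.0% for mitosis genes and at 20.0% for S phase genes.

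Most fold changes on the list were small, and a single gene was called. Cdkn1c, the gene of the CDK inhibitor p57, was lower in PYK2 KO BMDMs, and it was the only gene of the 58 called at an adjusted p under 0.05 (edgeR quasi-likelihood test, Benjamini-Hochberg adjustment over 9815 genes). That is 1 gene, or 1.72% of the list, against 0.255% of all genes tested (25 genes, 11 higher and 14 lower). At an unadjusted p under 0.05 there were 7 genes, or 12.1%, against 6.03% of all genes tested. Of these 7, Cdkn1c was lower and 6 were higher, namely Birc5, Cdc45, Ccne1, Mki67, Smc4 and Top2a, which is 10.3% of the list against 3.40% of all genes. The 3 PYK2 KO levels lay all above or all below the 3 WT levels for 6 genes (10.3%), against 10.2% of all genes tested, so the list showed such separation about as often as any other genes. They were Cdkn1c on the low side and Birc5, Mki67, Top2a, Smc4 and Aurka on the high side.

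The direction of the small differences was uneven. The log2 fold change was above 0 for 47 of the 58 genes (81.0%), against 50.5% of all genes tested, with a median of 0.08 and a range from -0.90 to 0.59, while the median over all genes was 0.00. The genes of the list share libraries, and many follow the same order of libraries, so the 47 are not separate observations. The count rested on library WT 1: without it 30 of the 58 genes were above 0 and the median was 0.01. Without any other single library the count was 39 to 51. The median standard error was 0.13, and 43 genes (74.1%) had a 95% interval that stayed within a change of 0.5 on the log2 scale in either direction, which 59.8% of all genes did. For 55 genes (94.8%) it stayed within a doubling or halving, against 92.2% of all genes tested. For some genes reads could be shared with other gene models: 8 (Ccnb1, Cdc20, Hmgb2, Mcm7, Mybl2, Pcna, Stmn1 and Uhrf1) had at least 10% of the 50-base words of their 3′ end in another gene, and 18 had an exon overlap with a gene on the opposite strand, which counting without strand would not tell apart. The interval, not the p-value, is the measure of how far a gene without a call can have differed. Because these are bulk samples, a change in the share of dividing cells and a change in RNA per dividing cell cannot be told apart.

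**Figure D2:**
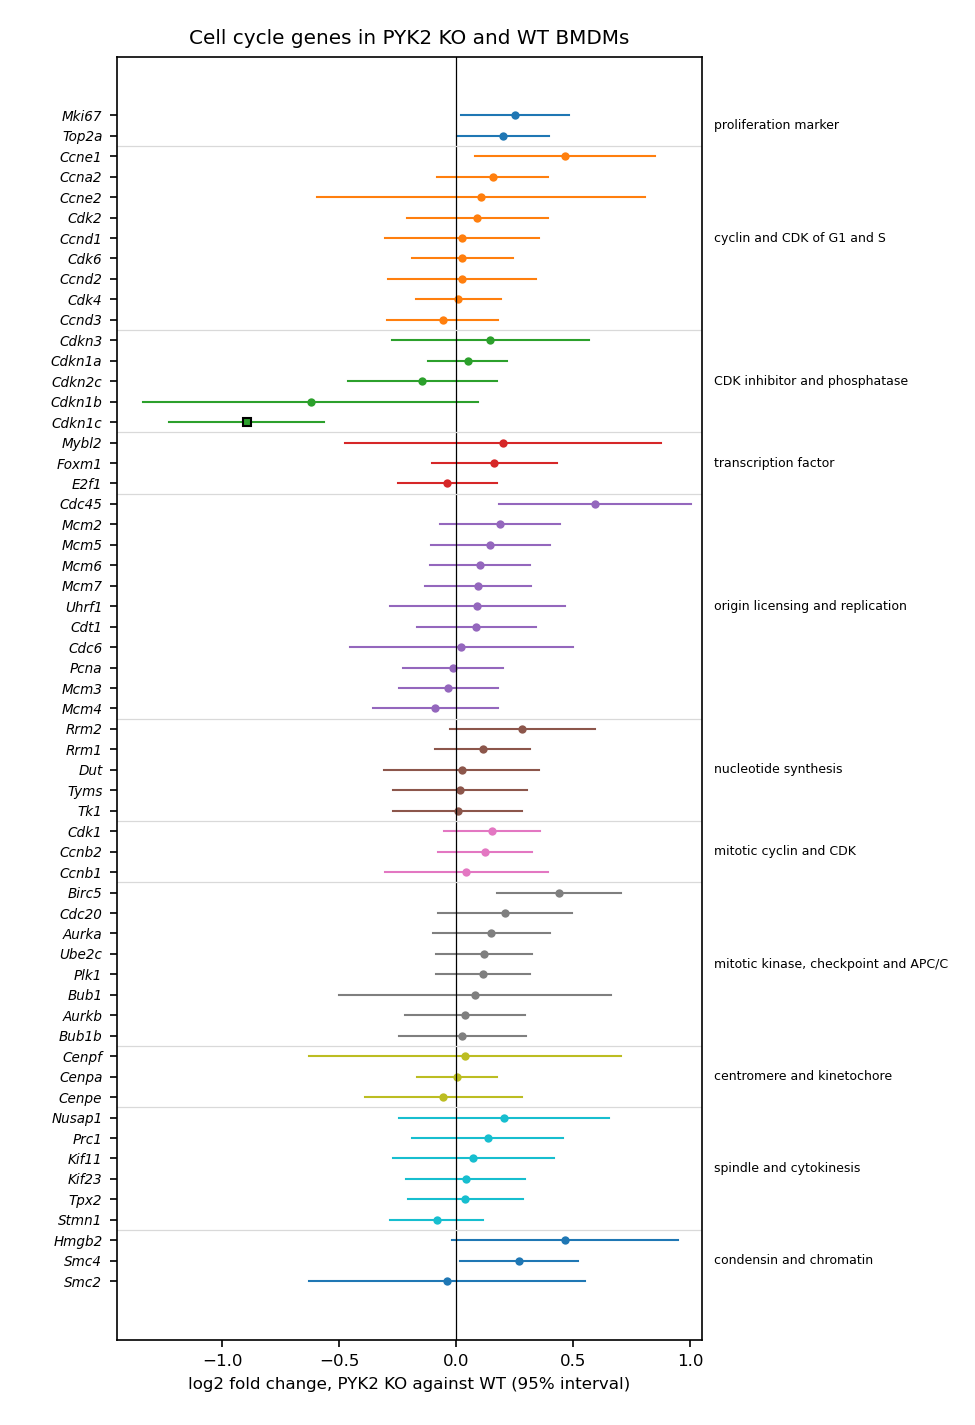
Log2 fold change of PYK2 KO against WT (x axis, points, with lines for the 95% interval of the edgeR fit, n = 3 mice per genotype) for the 58 genes, grouped and coloured by role and sorted within each role. Cdkn1c, the black-edged square at -0.90, was the only gene called, and most other points lie between 0 and 0.3.

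Of the brakes on CDKs, Cdkn1c (chromosome 7, 143458339 to 143461050, minus strand, GENCODE M21 on GRCm38) stood apart. Its level was 133, 119 and 200.5 CPM in WT libraries 1, 5 and 6 and 84.7, 69.6 and 86.4 CPM in PYK2 KO libraries 2, 3 and 4. Every KO library lay below every WT library, and WT 6 was the highest of all. The mean was 151 ± 43.6 CPM in WT and 80.3 ± 9.24 CPM in KO cells (SD over 3 mice each). The log2 fold change was -0.90 (SE 0.16, 95% interval -1.23 to -0.57), or 0.538 of the WT level. The adjusted p was 0.0191 (edgeR quasi-likelihood test, Benjamini-Hochberg), and the two-sided exact permutation test gave p = 0.1, the smallest that 3 against 3 mice allow. The fold change held its sign with any library left out, from -1.04 without WT 5 to -0.65 without WT 6. The call was less firm than the size: the adjusted p was 0.0602 without KO 2, 0.165 without KO 3, 0.0751 without KO 4 and 0.133 with DESeq2. No stretch of 50 bases at the 3′ end of Cdkn1c was shared with another gene, and Gm44732, annotated across it on the opposite strand, had 0 counts in every library.

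The other inhibitors gave no call. Cdkn1a, which encodes p21, was at 691, 678 and 757 CPM in WT and at 768, 726 and 704 CPM in PYK2 KO libraries. The ranges overlapped, and the log2 fold change of 0.05 had a 95% interval from -0.12 to 0.22. Cdkn1b, the gene of p27, had few counts, 48, 20 and 15 in WT and 18, 13 and 17 in PYK2 KO libraries. Its log2 fold change of -0.62 (SE 0.34) came from library WT 1 and was -0.09 without it. Cdkn2c, an INK4 gene (p18), was at -0.15 (SE 0.15), and Cdkn3, a phosphatase that acts on CDKs, at 0.14 (SE 0.20). Within the CIP/KIP family, the 95% interval of Cdkn1a did not meet that of Cdkn1c, and that of Cdkn1b (-1.34 to 0.09) did.

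The proliferation markers had small positive values in PYK2 KO BMDMs and were not called. Mki67 encodes the Ki-67 antigen of cycling cells. It was at 61.3, 57.9 and 56.8 CPM in WT and at 63.5, 66.5 and 79.6 CPM in PYK2 KO libraries, with no overlap between genotypes and with KO 4 well above the rest. The log2 fold change was 0.25 (SE 0.11, unadjusted p = 0.0339, adjusted p = 0.778 with edgeR), and it was 0.14 without KO 4. Top2a, the topoisomerase that untangles replicated chromosomes, was at 142, 138 and 139.9 CPM in WT and at 152, 145 and 184 CPM in PYK2 KO libraries. The WT values were tight and KO 4 was again the highest. Its log2 fold change was 0.20 (SE 0.09, unadjusted p = 0.0480, adjusted p = 0.823 with edgeR) and 0.09 without KO 4.

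Mitotic kinases, checkpoint genes and parts of the anaphase-promoting complex were above 0 in all 8 cases, at a median of 0.12 on the log2 scale, and no gene was called. Birc5 encodes survivin, a subunit of the chromosomal passenger complex that is also an inhibitor of apoptosis, and lies on chromosome 11 from 117849251 to 117855743 on the plus strand. It was at 51.1, 55.7 and 69.8 CPM in WT and at 77.6, 70.3 and 89.1 CPM in PYK2 KO libraries. The genotypes did not overlap, though WT 6 and KO 3 were nearly level. The log2 fold change was 0.44 (SE 0.12, 95% interval 0.18 to 0.70), with an unadjusted p of 0.00283 and an adjusted p of 0.401 in edgeR, the smallest on the list after Cdkn1c. It kept its sign without any library, from 0.34 to 0.57, and passed the threshold only when no filter on low counts was used (adjusted p = 0.0151, edgeR). Aurka, the kinase of the spindle poles, was at 36.8, 38.9 and 41.7 CPM in WT and 45.6, 42.3 and 42.0 CPM in PYK2 KO libraries, again without overlap. Its log2 fold change was 0.15 (SE 0.12, unadjusted p = 0.220 with edgeR), a gap between KO 4 and WT 6 of well under a CPM. Aurkb, the catalytic partner of survivin, had a log2 fold change of 0.04 (SE 0.12). Ube2c, the ubiquitin-conjugating enzyme of the anaphase-promoting complex, was at 148, 193 and 184 CPM in WT and 188, 195 and 186 CPM in PYK2 KO libraries. WT 1 alone was low, and the log2 fold change of 0.12 fell to 0.01 without that library. Cdc20, an activator of the complex, was at 0.21, Plk1 (polo-like kinase) at 0.11, and the spindle checkpoint genes Bub1 and Bub1b at 0.08 and 0.03.

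The mitotic cyclins and their kinase gave 3 small positive values. Cdk1, the kinase that drives entry into mitosis, was at 89.1, 107 and 109.7 CPM in WT and at 113, 106 and 119 CPM in PYK2 KO libraries. The ranges overlapped and the log2 fold change was 0.15 (95% interval -0.05 to 0.36), or 0.06 without WT 1. Ccnb1, a cyclin B, was at 19.7, 23.5 and 20.7 CPM in WT and at 22.1, 18.0 and 25.3 CPM in PYK2 KO libraries. Its value of 0.04 changed sign when single libraries were left out (-0.08 to 0.16), and 32.9% of its 3′ words were shared with pseudogenes and other gene models. Ccnb2, the other cyclin B, was at 0.12.

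Among structural genes of mitosis, Smc4 was the only one at an unadjusted p under 0.05. Smc4, a core subunit of condensin, was at 41.6, 39.2 and 34.7 CPM in WT and at 44.3, 46.4 and 48.9 CPM in PYK2 KO libraries. All KO values were higher, with a log2 fold change of 0.27 (SE 0.12, unadjusted p = 0.0399, adjusted p = 0.787 with edgeR). Smc2, which pairs with SMC4 in condensin, was at -0.04 but with few counts and a wide interval (-0.63 to 0.55). Hmgb2, a chromatin protein of dividing cells, was at 0.46 (95% interval -0.02 to 0.95), with WT 5 as its lowest library. Cenpa, the histone of the centromere, was at 125, 128 and 134 CPM in WT and at 129.6, 134 and 125 CPM in PYK2 KO libraries. The ranges overlapped, and the log2 fold change was 0.00 (95% interval -0.17 to 0.18). Cenpe and Cenpf, which act at the kinetochore, were at -0.06 and 0.04. Stmn1, which destabilizes microtubules, was at 101, 122 and 123 CPM in WT and 108, 109.8 and 107 CPM in PYK2 KO libraries, a log2 fold change of -0.08 (95% interval -0.28 to 0.12). The spindle and cytokinesis genes Nusap1 (0.20), Prc1 (0.13), Kif11 (0.07), Kif23 (0.04) and Tpx2 (0.04) completed the 25 mitosis genes, of which 22 were above 0, with a median of 0.11 that stayed between 0.07 and 0.15 when single libraries were left out.

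**Figure D3:**
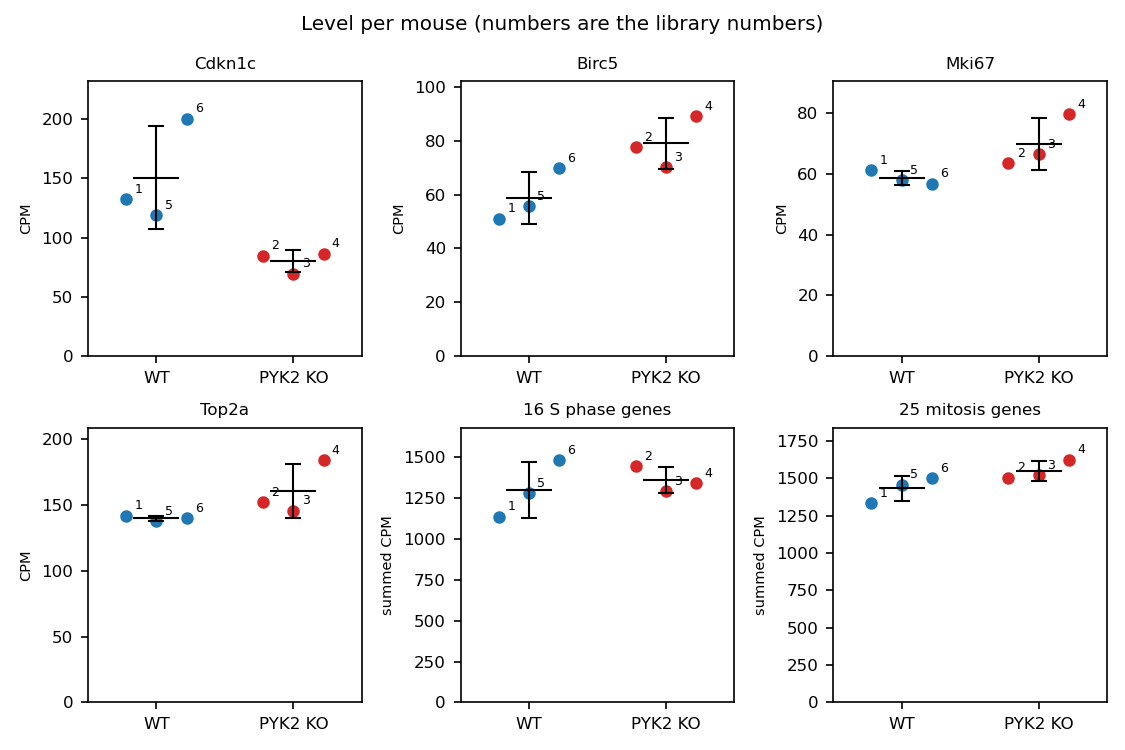
CPM (y axis) in each library for Cdkn1c, Birc5, Mki67 and Top2a, and CPM summed over the 16 S phase and 25 mitosis genes. Points are mice with the library number beside them, and black lines give the mean and SD (n = 3). The 3 PYK2 KO points lie below the WT points for Cdkn1c, above them for Birc5, Mki67, Top2a and the mitosis sum, and among them for the S phase sum.

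At the start of the cycle, the cyclins and CDKs of G1 and S were above 0 in 8 of 9 cases, but with a median log2 fold change of only 0.03. Ccnd1, the D cyclin induced by M-CSF, was at 204, 253 and 344 CPM in WT and at 311, 283 and 218 CPM in PYK2 KO libraries. The spread within a genotype was far larger than the difference between the means, the log2 fold change was 0.03 (95% interval -0.30 to 0.35), and its sign turned with single libraries (-0.14 to 0.25). Cdk4, a partner of the D cyclins, was at 343, 390.2 and 392 CPM in WT and at 389, 387 and 356 CPM in PYK2 KO libraries, a log2 fold change of 0.01 (95% interval -0.17 to 0.19). Ccnd2 and Ccnd3, the remaining D cyclins, were at 0.02 and -0.06, and Cdk6 at 0.03. Ccne1, a cyclin E, was the exception in size. It was at 14.6, 15.96 and 22.8 CPM in WT and at 27.0, 22.5 and 23.0 CPM in PYK2 KO libraries, so that WT 6 overlapped the KO values. Its log2 fold change was 0.47 (SE 0.18, unadjusted p = 0.0206, adjusted p = 0.698 with edgeR). Ccne2, the other cyclin E, was at 0.11 with a wide interval (-0.59 to 0.81), Cdk2 at 0.09 and Ccna2, the cyclin A of S phase and G2, at 0.16.

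The 3 transcription factors that switch on these waves gave no call. E2f1, an activator of S phase genes, was at 71.0, 75.6 and 81.0 CPM in WT and at 78.0, 76.2 and 67.1 CPM in PYK2 KO libraries. Its log2 fold change was -0.04 (95% interval -0.25 to 0.17). Foxm1, an activator of mitotic genes, was at 0.16 (SE 0.13), and Mybl2, which encodes B-MYB, at 0.20 (SE 0.32) with few counts.

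The S phase genes showed the difference between mice more than that between genotypes. Summed over the 16 genes, the level was 1136, 1281 and 1480 CPM in WT libraries 1, 5 and 6 and 1444, 1290 and 1339 CPM in PYK2 KO libraries 2, 3 and 4. The WT libraries spanned a wider range than the KO libraries and enclosed them, and the ratio of the means was 1.045 (1299 ± 173 against 1358 ± 78.7 CPM, SD, n = 3 mice each). Of the 16 genes 13 were above 0, with a median of 0.09 that went from -0.02 without WT 1 to 0.18 without WT 6. Pcna, the sliding clamp of DNA polymerases, was at 207, 229 and 262 CPM in WT and at 253, 206 and 230.1 CPM in PYK2 KO libraries, a log2 fold change of -0.01 (95% interval -0.23 to 0.20). Cdc45, a part of the replicative helicase, was the largest positive value of the list. It was at 14.1, 17.1 and 24.2 CPM in WT and at 22.8, 31.5 and 27.7 CPM in PYK2 KO libraries. WT 6 lay above KO 2, and the log2 fold change was 0.59 (SE 0.19, unadjusted p = 0.00757, adjusted p = 0.559 with edgeR). Its exons overlap those of Ufd1 on the opposite strand, and whether counting used strand was not given in the sources used here. The MCM genes, whose products form the core of that helicase, had smaller values. Mcm2, Mcm5, Mcm6 and Mcm7 were at 0.19, 0.14, 0.10 and 0.09, and Mcm3 and Mcm4 at -0.03 and -0.09. The licensing genes Cdc6 and Cdt1 were at 0.02 and 0.09, and Uhrf1, which carries DNA methylation through replication, at 0.09. Rrm1, the large subunit of ribonucleotide reductase, was at 111, 116 and 135 CPM in WT and at 143, 121 and 126 CPM in PYK2 KO libraries. The log2 fold change of 0.11 went from 0.04 without KO 2 to 0.19 without WT 6. Rrm2, the small subunit, was at 0.28 (95% interval -0.03 to 0.59), while Dut, Tyms and Tk1, which feed the thymidine pool, were at 0.02, 0.02 and 0.01.

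Read library by library, the S phase genes kept nearly 1 order in WT and a looser one in PYK2 KO BMDMs. WT 6 was the highest of the 3 WT libraries for 15 of the 16 S phase genes and WT 1 the lowest for 14. Among the KO libraries, KO 2 was the highest for 11 and the lowest for 3, KO 3 the lowest for 8, and KO 4 the highest for 4 and the lowest for 5. The median S phase gene was at -0.21 in WT 1 and at 0.23 in WT 6 on the log2 scale relative to the WT mean, a distance larger than any of the KO medians from 0 (0.03 to 0.17). The mitosis genes kept a looser order. Of the 25, WT 1 was the lowest for 15 and the highest for 5, WT 5 the lowest for 7 and the highest for 7, and WT 6 the lowest for 3 and the highest for 13. Among the KO libraries, KO 4 was the highest for 13 and the lowest for 7, KO 3 the highest for 9 and the lowest for 10, and KO 2 the highest for 3 and the lowest for 8. The 25 mitosis genes summed to 1335, 1458 and 1501 CPM in WT and 1503, 1521 and 1625 CPM in PYK2 KO libraries, a ratio of means of 1.08 with WT 6 and KO 2 almost level. Mki67 and Top2a are part of that sum, with 203, 196 and 197 CPM in WT and 215, 212 and 263 CPM in PYK2 KO libraries. The narrow gap between the genotypes is therefore not separate from these 2 genes. Typical scatter within a genotype was ordinary, with a median coefficient of variation of 11.5% for the 58 genes and 11.02% for all genes tested. The first principal component of the residuals over genes outside the cell cycle lists had WT 1 (0.53) and KO 4 (0.52) at one end and WT 6 (-0.43) and KO 2 (-0.50) at the other. The S phase sums of the WT libraries ran in this order. Those of the KO libraries did not, since KO 2 was the highest but KO 3 and not KO 4 the lowest. For the mitosis sums the end with WT 1 and KO 4 held the lowest WT library and the highest KO library.

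**Figure D4:**
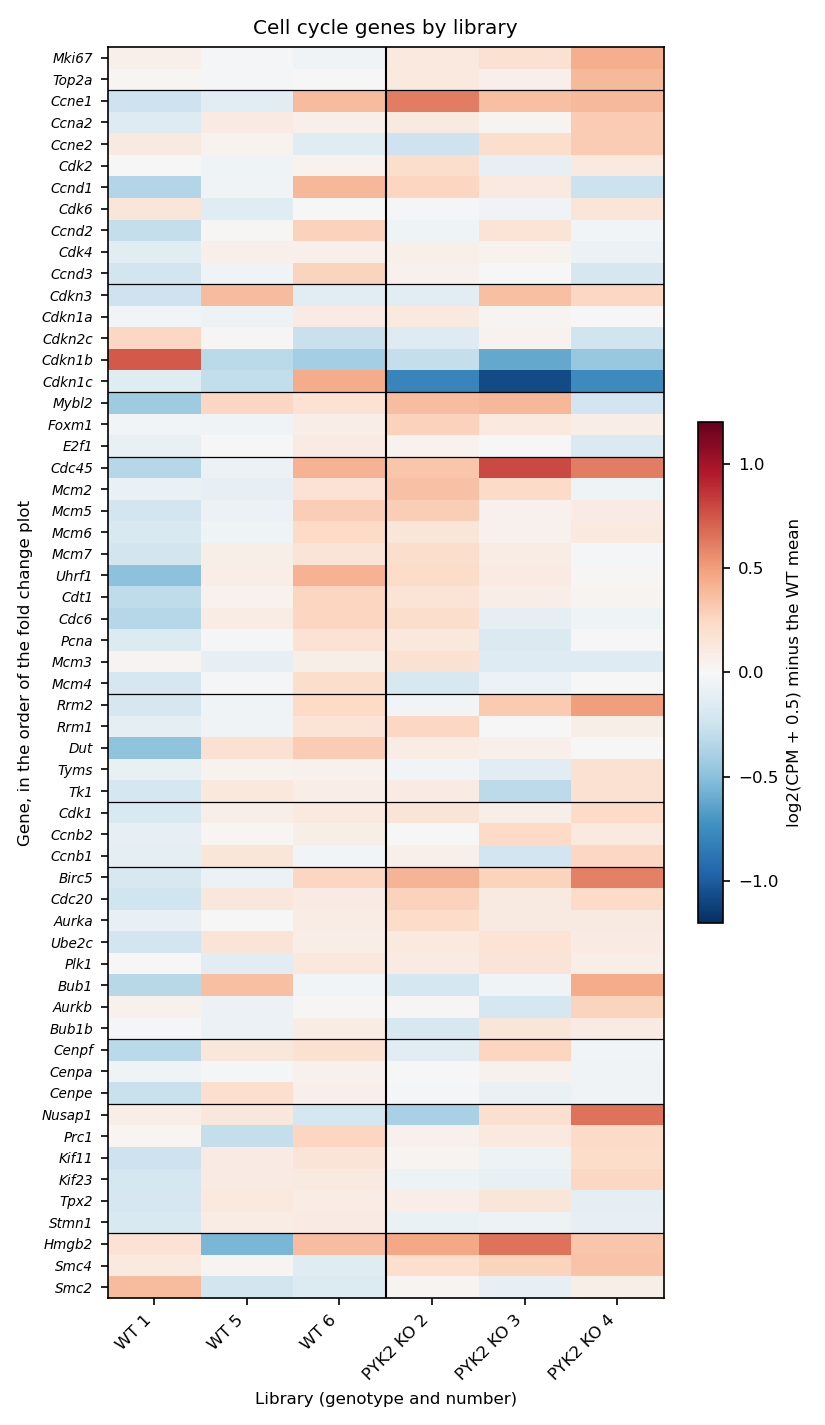
Level of each of the 58 genes (rows, in the order of the fold change plot) in the 6 libraries (columns), as log2(CPM + 0.5) minus the mean of the WT libraries, from blue (lower) to red (higher). The S phase rows, Cdc45 to Tk1, are mostly blue in WT 1 and red in WT 6, and Cdkn1c is blue in all 3 PYK2 KO libraries.

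Cell cycle genes outside the list gave no call either. Of 152 further genes in 3 lists, 135 had enough counts, 96 of them (71.1%, against 50.5% of all genes tested) were above 0 and the median log2 fold change was 0.06. The 152 genes summed to 5723, 5878 and 6326 CPM in WT libraries 1, 5 and 6 and to 6107, 6156 and 6125 CPM in PYK2 KO libraries 2, 3 and 4. WT 1 was again the lowest, and the WT values enclosed the KO values. These genes come from the same libraries as the 58, and their count above 0 was not repeated without WT 1. The counts at an unadjusted p under 0.05 that follow stand against 6.03% of all genes tested. Among 56 tested G2 and mitosis genes 47 were above 0, with a median of 0.07. The 65 genes of that list summed to 2870, 2944 and 3219 CPM in WT and 3047, 3135 and 3094 CPM in PYK2 KO libraries, so that WT enclosed KO. Of the 56, 2 reached an unadjusted p under 0.05. They were Hmmr, a spindle-associated receptor of hyaluronan (0.47, SE 0.17, adjusted p = 0.627 with edgeR), and Anln, the anillin of the cleavage furrow (0.45, SE 0.17, adjusted p = 0.673 with edgeR). Among 50 tested S phase genes 32 were above 0, the median was 0.06, and Cdc7, the kinase that fires origins, was the only one at an unadjusted p under 0.05, at 0.80 (SE 0.36) with 15, 11 and 11 counts in WT and 12, 15 and 32 in PYK2 KO libraries. KO 4 alone was high for Cdc7. Of 29 tested pocket protein, E2F and MuvB genes 4 reached an unadjusted p under 0.05. The retinoblastoma gene Rb1 (0.45) and the atypical repressor E2f7 (0.52) were higher, and Myc (-0.39) and the chromatin subunit Rbbp4 (-0.19) lower, with an adjusted p of at least 0.660 for each in edgeR. Of 21 tested p53 target genes, the class to which Cdkn1a also belongs, 8 were above 0, the median was -0.01 and none reached an unadjusted p under 0.05.

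**Figure D5:**
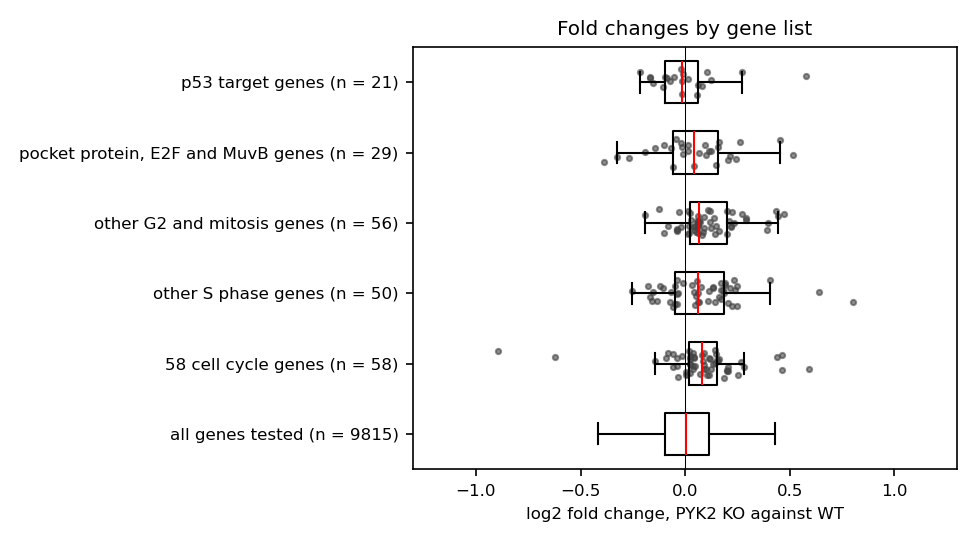
Log2 fold change of PYK2 KO against WT (x axis) for the 58 genes, 4 other lists and all genes tested. Boxes span the quartiles with the median in red, whiskers reach the last value within 1.5 box lengths, points are genes, and for all genes tested no points are drawn. The median of the 58 genes is 0.08 and that of all genes tested 0.00, and Cdkn1c is the lowest point.

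Markers of granulocytes and their progenitors, cells that also arise in marrow cultures, gave no call. Of 17 markers 10 were tested and 7 of them were above 0. At an unadjusted p under 0.05 were 4 of the 10, all higher, against 6.03% of all genes tested. They were S100a9 (0.85), Mpo (1.19), Prtn3 (0.53) and Mmp8 (0.44), while Camp (-0.26), Lcn2 (-0.10) and Ltf (-0.09) were below 0. The genotypes did not overlap for 3 of the 10, against 10.2% of all genes tested. The summed level of the markers was 403, 303 and 371 CPM in WT libraries 1, 5 and 6 and 340.1, 502 and 562 CPM in PYK2 KO libraries 2, 3 and 4. KO 4 was the highest, as it was for Mki67, Top2a and the mitosis sum that contains them. Among the WT libraries, WT 1 was the highest for these markers, Mki67 and Top2a but the lowest for the mitosis sum. Ms4a3, a defining marker of granulocyte and monocyte progenitors, had 0 counts in 5 of 6 libraries and 1 count in WT 5. Mpo had 6, 12 and 4 counts in WT and 11, 14 and 21 in PYK2 KO libraries. Ly6c2, of monocytes, was higher (0.64, unadjusted p = 0.00891, adjusted p = 0.591 with edgeR), and the 6 monocyte markers summed to 30.9 to 33.0 CPM in WT and 34.0 to 44.4 CPM in PYK2 KO libraries. The part of these cells in the cell cycle values was not tested. Of the 8 stem and progenitor markers 2 were tested, Meis1 and Cdk6, the latter itself of the 58 genes. Without Cdk6 these markers summed to only 7.15 to 8.40 CPM in WT and 5.54 to 8.01 CPM in PYK2 KO libraries. Of 8 B cell markers 7 had 0 counts in every library, as did 5 of 8 dendritic cell markers.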

How the data were processed

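Bulk MARS-seq libraries were made from BMDMs at day 7, 3 per genotype. The deposited values were raw counts for each gene, which the authors obtained with the UTAP pipeline and did not normalize. The submitters' processing notes name cutadapt, STAR and the mm10 genome, without versions. Whether molecular identifiers were collapsed and whether counting used strand were not given in the sources used here, so intervals cover the spread between mice and not errors of counting method. The 6 count columns carried the sample names, and 0 columns belonged to other samples.

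Genotypes were compared with edgeR 4.0.16 under R 4.3.3 (filterByExpr with a minimum count of 10, TMM, quasi-likelihood F test, Benjamini-Hochberg adjustment over 9815 genes, threshold 0.05). CPM are counts scaled to a common library size with TMM factors, and fold changes are PYK2 KO over WT. The 58 genes had mean counts from 12.2 to 2356 (median 194), 3 of them under 20. The members and lists were chosen with earlier results of these data known. Values per library are given for Ptk2b, for genes with an adjusted or unadjusted p under 0.05 or without overlap between genotypes, for 10 genes named for their role and for the gene with the highest mean count of each role. Other lists are named by their genes with an unadjusted p under 0.05, at most 4 each.

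Alternatives were DESeq2 1.42.0, limma 3.58.1 (voom), the edgeR likelihood ratio test, other scalings and filters, the first residual principal component as a covariate and leaving out each library. The scripts were tested on simulated data. Positions are from GENCODE M21. Shared 3′ sequence was counted as words of 50 bases in the last 600 bases of each transcript.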

Additional observations from a re-analysis of the deposited data

How the results depend on the processing

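No paired analysis was possible because no library number occurs in both genotypes (1, 5 and 6 in WT, 2, 3 and 4 in PYK2 KO). Over all genes, 159 passed without a filter, 45 with the likelihood ratio test and 59 with the residual component as a covariate, and 14 to 34 with single libraries left out, against 25. The residual component sums to 0 within each genotype by construction, so it can lower the error but hardly move a fold change, and its count bears on nothing else. Of the 58 genes, 2 passed without a filter (Cdkn1c and Birc5) and 0 with DESeq2, which put 3 at an unadjusted p under 0.05 (2.76% of all genes tested) and gave Cdkn1c a log2 fold change of -0.91. With single libraries left out 0 to 1 passed, 0 without KO 2, KO 3 or KO 4, while 4 to 9 were at an unadjusted p under 0.05 (4.44% to 6.95% of all genes tested) and 8 to 17 did not overlap (18.0% to 22.6% of all genes tested, with fewer samples to compare). Of the other cell cycle genes 1 passed without a filter, Kpna2, with 0, 0 and 1 counts in WT and 0, 1 and 19 in PYK2 KO libraries, and 0 to 0 with single libraries left out. Of the 58 genes 30 changed sign with at least 1 library left out, 19 of them without WT 1 and 14 without KO 4. Among the 20 genes given with all their values these were Ccnb1 (-0.08 to 0.16), Ccnd1 (-0.14 to 0.25), Cdk4 (-0.05 to 0.05), Cenpa (-0.02 to 0.03), Pcna (-0.09 to 0.08) and E2f1 (-0.09 to 0.03), and Cenpa also without a filter (-0.0021). The causes were not tested. Of the values of those 20 genes over 14 alternatives, 258 kept their direction and side of the threshold, 17 changed sign, 4 lost the call and 1 gained it. The standard errors were largest for Cdkn1b, Ccne2, Mybl2, Cenpf, Smc2, Bub1 and Hmgb2 (0.23 to 0.34), against a median of 0.13.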

Other observations

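Cdkn1c lies in an imprinted cluster, so its neighbours were looked at after its value was seen. Within 500 kb to either side 44 genes are annotated and 15 had enough counts to test, Cdkn1c included. None of the other 14 was called, and 0 reached an unadjusted p under 0.05 in edgeR. The tetraspanin genes Cd81 and Tspan32 had log2 fold changes of -0.05 (SE 0.08) and 0.12 (SE 0.10), and Tssc4 of -0.08 (SE 0.12). Kcnq1ot1, the long RNA that silences the cluster on the paternal copy, and Phlda2 had 0 counts in every library.

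Stmn1 shared 22.1% of its 3′ words with 1 other gene model, Gm11223. Gm11223 had 1, 4 and 5 counts in WT and 26, 12 and 18 in PYK2 KO libraries, a log2 fold change of 2.57 (SE 0.49) that passed the threshold (adjusted p = 0.0398, edgeR quasi-likelihood test), while Stmn1 itself had 394, 436 and 350 counts in WT and 337, 317 and 360 in PYK2 KO libraries. Whether the counting split reads between the 2 was not tested. Of the 58 genes, 26 shared no 3′ word with another gene.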
